A study of Mus musculus with 4 samples.

Results

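The Sm, LSm and SF3 genes encode core proteins of the spliceosome, the machine of small nuclear RNAs and proteins that removes introns from pre-messenger RNA. They were measured in mouse embryonic stem (ES) cells, and 29 of the 18193 genes with a probe set of their own belonged to them. Members were taken by symbol (Lsm followed by a digit, Snrp, and Sf3a or Sf3b followed by a digit), without the imprinted gene Snrpn. Where a gene had several probe sets, it was read from the brightest, by the mean of the 4 arrays. The 29 comprised 5 genes of the Sm ring, 3 of proteins found in the U1 or U2 particle, 12 LSm genes, 3 SF3a genes and 6 SF3b genes.

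There were 4 single-colour Affymetrix arrays, 2 of RNA from Snai1 knockout ES cells and 2 of RNA from control ES cells, which the titles mark F/F without explaining it. Cells of both groups were grown with leukaemia inhibitory factor and feeder cells, with no further treatment, and their RNA was labelled from the 3' end. Snai1 encodes the zinc finger repressor Snail. The source name of the control samples also holds the words knock out, so the direction of every difference rests on the titles and the genotype field. The sources used here do not give strain, age, how the allele was deleted or whether a group came from a single clone. The arrays of a group are labelled biological replicates without saying what separated them, so p-values measure only the spread between these samples.

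The Sm proteins form a closed ring around the U1, U2, U4 and U5 small nuclear RNAs, and the related LSm proteins form rings around U6 RNA in the nucleus and around the ends of messenger RNAs that are being decapped in the cytoplasm. SF3a and SF3b are subcomplexes of the U2 particle that help it to recognise the intron's branch point, and SF3b also belongs to the minor spliceosome. Dividing cells such as ES cells need a steady supply of these proteins, because new particles are assembled on each newly made small nuclear RNA.

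Promoter sequences are shown for Lsm2 and Snrpc, whose transcripts passed the test, and for Sf3b3. The Sf3b3 window is an example that held both sets of letters marked here. RefSeq windows of 300 bases (250 before to 50 after an annotated start, GRCm38.p6) were found for 23 of the 29 genes, in 26 windows, and none was found for Lsm1, Lsm4, Lsm12, Sf3b4, Sf3b5 and Snrpb. The E-box letters CAGGTG, or CACCTG on the other strand, which Snail is known to bind, occurred in 6 of the 26 windows (Lsm7 with 2 windows, Sf3b3, Snrpa1, Snrpb2 and Snrpe) and in 20.2% of all 32851 windows of the table. The letters CCGGAAG, or CTTCCGG, a core that ETS factors are known to bind in promoters of housekeeping genes, occurred in 11 of the 26 windows, in 8.86% of all windows and in 13.0% of the 18109 windows of genes on the array. These 11 windows belonged to 10 genes, namely all 3 SF3a genes, Sf3b2, Sf3b3, Sf3b6, Snrpb2, Snrpc, Snrpe and Snrpg. The ETS letters contain CG, and the median count of CG was 24 in the member windows. It was 16 in windows of genes on the array and 7 in all windows, and its part in these shares was not tested. The E-box letters cannot overlap the ETS letters. Snrpb2 and Snrpe are in both groups too, and their windows are not printed. Also searched were CACGTG, in 0 of the 26 windows and 7.15% of all windows, and TATAAA or TTTATA. The latter occurred in 1 of the 26 windows, that of Sf3b3, and in 13.6% of all windows. Capitals mark only the E-box letters CAGGTG or CACCTG and the ETS letters. Lsm2 had 2 windows with neither set of letters, of which the upstream window is given. The windows lie at chr17:34981604-34981903 on the plus strand (Lsm2), chr17:27839837-27840136 on the plus strand (Snrpc) and chr8:110846754-110847053 on the minus strand (Sf3b3).
Lsm2: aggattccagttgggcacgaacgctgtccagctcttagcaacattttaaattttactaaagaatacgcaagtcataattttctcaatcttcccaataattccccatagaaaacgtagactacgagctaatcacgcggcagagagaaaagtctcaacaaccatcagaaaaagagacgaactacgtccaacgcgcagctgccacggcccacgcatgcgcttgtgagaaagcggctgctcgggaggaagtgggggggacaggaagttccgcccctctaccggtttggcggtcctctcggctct
Snrpc: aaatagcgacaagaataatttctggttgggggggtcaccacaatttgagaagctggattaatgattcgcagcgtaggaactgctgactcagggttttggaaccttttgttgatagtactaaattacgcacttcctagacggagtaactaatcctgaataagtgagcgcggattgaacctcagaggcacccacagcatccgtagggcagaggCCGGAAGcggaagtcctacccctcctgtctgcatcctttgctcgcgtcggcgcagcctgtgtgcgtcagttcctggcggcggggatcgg
Sf3b3: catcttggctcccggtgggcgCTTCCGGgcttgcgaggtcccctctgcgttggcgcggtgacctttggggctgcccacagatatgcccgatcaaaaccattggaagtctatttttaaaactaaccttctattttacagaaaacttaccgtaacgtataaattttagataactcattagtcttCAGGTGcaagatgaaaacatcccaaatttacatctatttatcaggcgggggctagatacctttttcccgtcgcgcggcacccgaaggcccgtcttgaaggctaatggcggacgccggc

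The cells carried the transcripts of ES cells. All 10 ES cell markers lay above the range of 24 control probe sets for Bacillus transcripts (2.91 to 4.77). Their mean levels were 11.91 and 11.76 in knockout replicates 1 and 2, against 11.36 and 11.42 in control replicates 1 and 2. Pou5f1, Nanog, Utf1 and Esrrb rose in the knockout, by 0.85, 0.94, 1.62 and 1.05 on the log2 scale. Sox2, Cdh1, Zfp42, Tdgf1, Dppa5a and Epcam did not pass, with differences of -0.02, 0.02, 0.02, 0.02, 0.14 and -0.17. The median difference of the 10 markers was 0.08. The mean level of 19 fibroblast markers, for the feeder cells, was 7.39 and 6.78 in the knockout against 7.62 and 7.01 in the control, with 1 or 2 markers per array within the background range. The 3 brightest of them, S100a4, Acta2 and Tagln, differed by 0.30, -0.40 and 0.44 and did not pass. Over all 19 the median difference was -0.26, with 12 below 0, and 0 passed. The largest was that of Prrx1, at 6.83 and 6.09 in the knockout against 8.02 and 7.39 in the control, without overlap (-1.24 ± 0.28, SE, adjusted p = 0.0549). A sign of RNA quality also differed: the 3' control probe set of Actb exceeded the 5' one by 1.11 and 0.80 in the knockout arrays against by 3.02 and 2.97 in the control arrays, and that of Gapdh by 0.40 and 0.27 against 1.24 and 1.48. Snai1 was at 3.79 and 4.04 in the knockout against 4.41 and 4.69 in the control, all within the background range (difference -0.63 ± 0.16, SE, limma adjusted p = 0.0692), so its level does not check the labels.

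Of the 29 members, 2 rose in the Snai1 knockout and 0 fell: Lsm2, a subunit of both LSm rings, and Snrpc, which encodes the U1-C protein that helps the U1 particle to hold the 5' splice site. Rises were called for 1.98% of all 18193 genes and falls for 2.17%, at a limma adjusted p under 0.05. At an unadjusted p under 0.05 there were 5 members higher (9.06% of all genes) and 4 lower (14.9%). The median log2 difference, knockout minus control, was 0.17 over the members, -0.02 over all genes and -0.09 over the 9484 genes at a mean of 6 or more. Both knockout arrays lay above both control arrays for 12 members (23.1% of all genes) and below them for 4 (29.2%), and the groups overlapped for 13. Of genes at a mean of 6 or more, 24.3% lay above in this way and 39.3% below. After each array's trend with genomic span and mean level was removed, the members' median was 0.08, and without knockout replicate 2 it was 0.08. In bulk RNA, fewer cells of a type and less RNA per cell cannot be told apart. All members lay above the background range on every array, between 7.20 and 13.86.

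**Figure D1:**
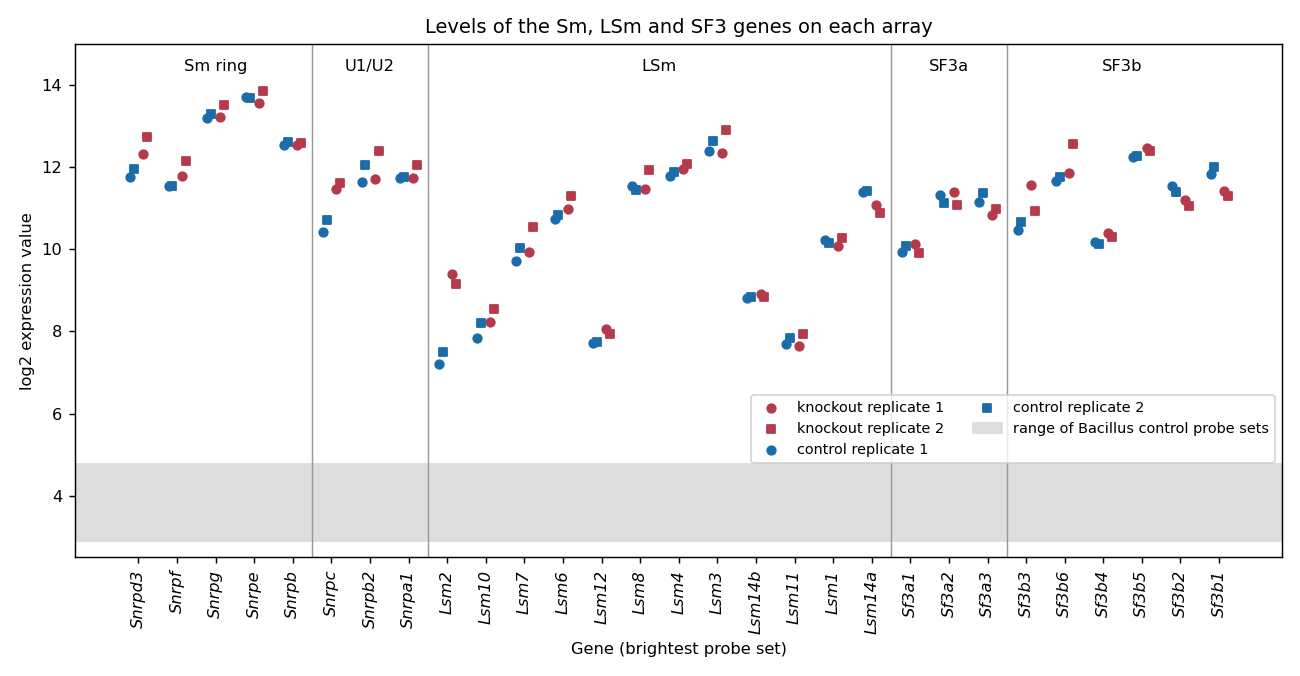
Log2 expression value (y axis) of the brightest probe set of each member (x axis) on each of the 4 arrays, by family, with knockout arrays in red and control arrays in blue. The grey band spans the Bacillus control probe sets (2.91 to 4.77), and every member lay above it, with the clearest gap between the groups for Lsm2.

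**Figure D2:**
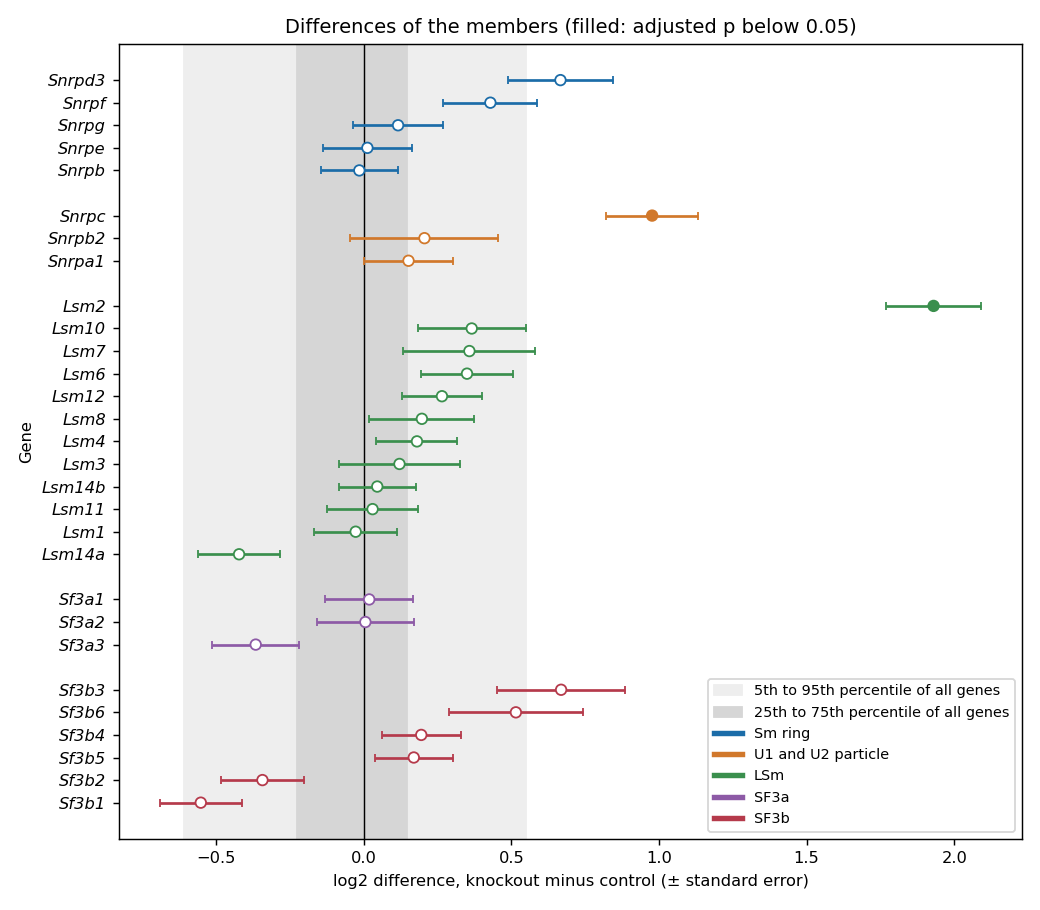
Log2 difference between knockout and control (x axis) for each member (y axis), with limma's standard error as bars and grey bands for the spread of all genes. Lsm2 (1.93) and Snrpc (0.98), the filled points, passed the threshold.

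The LSm family held the member with the largest difference. Lsm2 was at 9.39 and 9.16 in the knockout arrays against 7.20 and 7.49 in the control arrays. Both knockout arrays lay far above both control arrays, with no overlap, a 3.81-fold rise (log2 difference 1.93 ± 0.16, SE, adjusted p = 0.00718). Lsm2 has a single probe set, so no second reading within the gene was available. It passed under the 10 alternatives that kept all 4 arrays, with adjusted p from 2.9e-05 to 0.0293. With each array left out the difference ran from 1.79 to 2.07. Such fits left 1 array in a group, few of all genes passed them, and the call of Lsm2 did not hold in each. In these knockout arrays the gap between the Actb 3' and 5' probe sets was smaller by 2.04 than in the control, and its part in the rise of Lsm2 was not tested.

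The other subunits of the LSm2 to LSm8 ring, which binds the end of U6 RNA, did not pass. At their brightest probe sets all 6 measured genes of this ring, Lsm2 included, had differences above 0, with a median of 0.27. Of all genes, 46.6% had a difference above 0. Lsm6 was at 10.97 and 11.30 in the knockout against 10.74 and 10.83 in the control. Its groups did not overlap, but its difference of 0.35 ± 0.16 (SE) did not pass (adjusted p = 0.231). Lsm7 was at 9.93 and 10.54 in the knockout against 9.71 and 10.04 in the control, where the higher control array lay above the lower knockout array. Its difference of 0.36 became 0.05 without knockout replicate 2 and 0.66 without knockout replicate 1. Lsm4, at 11.95 and 12.07 against 11.77 and 11.89, differed by 0.18 ± 0.14 (SE). Lsm8 and Lsm3 overlapped between the groups, with differences of 0.20 ± 0.18 and 0.12 ± 0.20 (SE). Beside the 1.93 of Lsm2, the brightest probe sets of its measured ring partners thus lay between 0.12 and 0.36 on the log2 scale. Another probe set of Lsm6 differed by 0.66, and Lsm5 had only a probe set shared with a predicted gene (0.54). A dimmer probe set of Lsm8, at a mean of 5.30, went the other way (-0.55), with both knockout arrays below both control arrays. The gap between Lsm2 and its partners was not tested.

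The remaining LSm genes act outside that ring or only in part with it. Lsm1, which takes the place of LSm8 in the cytoplasmic decapping ring, was at 10.07 and 10.27 in the knockout against 10.24 and 10.15 in the control, with overlap and a difference of -0.03 ± 0.14 (SE). Lsm10 and Lsm11, the special subunits of the U7 particle that processes histone messenger RNA, differed by 0.37 ± 0.18 and 0.03 ± 0.15 (SE). Lsm10 lay at 8.23 and 8.54 in the knockout against 7.83 and 8.21 in the control, so the groups were separated by a narrow margin. Lsm12 differed by 0.26 and Lsm14b by 0.05. Lsm14a, a P-body protein of messenger RNA storage and decapping, had the lowest difference of the family, at 11.07 and 10.89 in the knockout against 11.39 and 11.41 in the control. Both knockout arrays lay below both control arrays, but the difference of -0.42 ± 0.14 (SE) did not pass (adjusted p = 0.117).

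Among the U1 and U2 particle genes, Snrpc was at 11.46 and 11.61 in the knockout against 10.41 and 10.71 in the control. The groups were well apart, and the rise was 1.97-fold (log2 difference 0.98 ± 0.16, SE, adjusted p = 0.0340). Without knockout replicate 1, knockout replicate 2, control replicate 1 or control replicate 2 the differences were 1.05, 0.90, 0.83 and 1.13. The call did not hold in these fits, which left 1 array in a group and which few of all genes passed. With all 4 arrays kept, it was lost when every probe set was tested singly (adjusted p = 0.0572). It was also lost when both Snrpc probe sets were averaged (0.57, adjusted p = 0.0566). The second probe set lay within the background range on all arrays. Over the 10 alternatives that kept all 4 arrays the adjusted p of Snrpc ranged from 0.00161 to 0.0572. With the span and level trend removed Snrpc differed by 0.98 ± 0.14 (SE, adjusted p = 0.0260). The control arrays had the larger Actb gap, whose part in this difference was not tested.

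The other genes of this group encode the partner proteins that bind a stem-loop of U2 RNA together. Snrpb2 was at 11.70 and 12.41 in the knockout against 11.64 and 12.06 in the control, so that the replicates of each group differed by more than the groups did (0.21 ± 0.25, SE). Snrpa1 was at 11.74 and 12.04 in the knockout against 11.73 and 11.75 in the control, with overlap and a difference of 0.15 ± 0.15 (SE).

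Of the 5 measured Sm ring genes, 0 passed in either direction, with a median difference of 0.12. Snrpd3 was at 12.33 and 12.74 in the knockout against 11.77 and 11.97 in the control. The groups did not overlap, and its difference of 0.67 ± 0.18 (SE) missed the threshold (adjusted p = 0.0729), while its second bright probe set differed by -0.11. Snrpf was at 11.80 and 12.15 in the knockout against 11.53 and 11.55 in the control, a difference of 0.43 ± 0.16 (SE, adjusted p = 0.156) without overlap. Snrpb, which encodes the SmB proteins of the ring, had the lowest difference of the 5, at 12.55 and 12.58 against 12.55 and 12.61 (-0.01 ± 0.13, SE). Snrpg and Snrpe overlapped between the groups, with differences of 0.12 and 0.01. All 5 genes were higher in knockout replicate 2 than in knockout replicate 1. The mean level of the Sm ring genes was 12.69 and 12.97 for knockout replicates 1 and 2, against 12.55 and 12.62 for the control arrays. The fibroblast markers ran the other way, with 14 of 19 higher in replicate 1 of the knockout and 17 of 19 in replicate 1 of the control, and their part in these differences was not tested.

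Several genes of the families had only probe sets that the annotation also assigns to predicted genes, so they are no members. The probe set shared by Snrpd1 and Gm14277 was at 11.92 and 12.49 in the knockout against 11.45 and 11.51 in the control, a difference of 0.73 ± 0.20 (SE). That of Snrpa, which encodes the U1-A protein, and 2 predicted genes differed by 0.66 ± 0.14 (SE), that of Lsm5 and Gm7846 by 0.54 ± 0.19 (SE) and that of Snrpd2 and Gm5848 by 0.22 ± 0.12 (SE). All 4 shared probe sets lay higher in both knockout arrays than in both control arrays, as did 23.1% of all genes, and none passed (adjusted p from 0.0774 to 0.418 over all probe sets). Signal of the predicted genes cannot be told apart from that of the named genes here. Among the brightest probe sets of the members, 7 end in _s_at and 2 in _x_at, the maker's marks for probes that can bind more than 1 transcript.

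Of the 9 SF3 genes 0 passed, and they pointed both ways. Sf3b3, a large scaffold protein of SF3b, was at 11.56 and 10.92 in the knockout against 10.48 and 10.67 in the control. Its groups did not overlap, but the knockout arrays stood far apart from each other, and the difference of 0.67 ± 0.22 (SE) did not pass (adjusted p = 0.114). Sf3b6, the subunit that contacts the branch point, was at 11.87 and 12.58 against 11.66 and 11.75 (0.52 ± 0.23, SE). These sizes moved with the knockout array left out: Sf3b6 differed by 0.16 without knockout replicate 2 and by 0.87 without knockout replicate 1, and Sf3b3 by 0.99 and 0.35. Sf3b4 and Sf3b5 differed by 0.19 and 0.17, each with both knockout arrays above both control arrays.

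Sf3b1, the branch-site clamp of SF3b and the target of splicing inhibitor drugs, had the lowest difference of all members. It was at 11.42 and 11.31 in the knockout against 11.84 and 11.99 in the control. The groups did not overlap, and the difference of -0.55 ± 0.14 (SE) missed the threshold (adjusted p = 0.0665). Its partner Sf3b2 was at 11.20 and 11.05 against 11.54 and 11.40 (-0.34 ± 0.14, SE). In SF3a, Sf3a3 was at 10.83 and 10.97 in the knockout against 11.15 and 11.38 in the control, a difference of -0.37 ± 0.15 (SE) that did not pass. Sf3a1 and Sf3a2 overlapped between the groups, with differences of 0.02 and 0.01. The median over the 9 genes was 0.02.

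Other probe sets of the same genes gave a second reading for 17 of the members. There were 27 such probe sets whose mean level reached 6. Of these, 18 (66.7%) had the sign of the gene's brightest probe set and 9 the opposite sign, in 7 genes; over all genes 62.2% of 5377 such probe sets had the sign of the brightest. Tested singly, 0.546% of all 45037 probe sets passed, and among the members' 70 probe sets the one of Lsm2 did (adjusted p = 0.0293).

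Readings of like size came from Lsm14a, Sf3b3 and Sf3b4. The 3 bright probe sets of Lsm14a differed by -0.42, -0.42 and -0.34, and in each of them both knockout arrays lay below both control arrays. Those of Lsm6 differed by 0.35, 0.66 and 0.36. The second probe set of Sf3b3 differed by 0.66, against 0.67 for the brightest, but it was at 8.29 and 7.03 in the control arrays and overlapped with the knockout. That of Sf3b4 differed by 0.19, as did the brightest.

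In other members the probe sets disagreed in size. Snrpg differed by 0.12 at its brightest probe set and by 0.74 at the other, which was at 12.67 and 13.28 in the knockout against 12.18 and 12.30 in the control. Lsm12 differed by 0.26 and 0.95, the latter with 6.95 and 7.21 in the knockout against 6.27 and 5.98. Snrpb2 differed by 0.21 and 0.94, Sf3b5 by 0.17 and 0.51 and Sf3a2 by 0.01 and 0.38. Sf3b6 went the other way round, with 0.52 at the brightest probe set and 0.02 at each of the other 2 bright ones.

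In 7 members the signs themselves were divided, among them genes of the Sm ring and the U2 particle. The second bright probe set of Snrpd3 was at 7.26 and 7.06 in the knockout against 7.24 and 7.28 in the control, with overlap and a difference of -0.11 ± 0.13 (SE), beside 0.67 at the brightest. Snrpb differed by -0.01 at the brightest and by 0.34 ± 0.18 (SE) at the other, where both knockout arrays lay above both control arrays. Snrpa1 differed by 0.15 at 2 probe sets and by -0.34 ± 0.14 (SE) at the remaining bright one, which was at 11.40 and 11.62 against 11.80 and 11.89 without overlap. The other 4 are SF3 genes. Sf3a3 differed by -0.37 at the brightest probe set but was at 8.57 and 9.22 in the knockout against 7.83 and 7.49 in the control at the other, a difference of 1.24 ± 0.24 (SE) without overlap. Sf3a1 differed by 0.02 at the brightest and by -0.64 ± 0.14 (SE) at the next, which lay at 7.97 and 7.75 against 8.43 and 8.57. For Sf3b1, 3 probe sets differed by -0.55, -0.34 and -0.31 and the remaining bright one by 0.97 ± 0.49 (SE), with control arrays at 9.46 and 8.06. The 6 bright probe sets of Sf3b2 differed by -0.34, -0.14, -0.46, 0.32, 0.58 and 1.21. The probe set at 1.21 was at 8.73 and 9.53 in the knockout against 8.57 and 7.26 in the control, so that control replicate 2 lay far below the other 3 arrays. The sources used here do not say which transcript forms these probe sets read, and none of these differences passed.

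**Figure D3:**
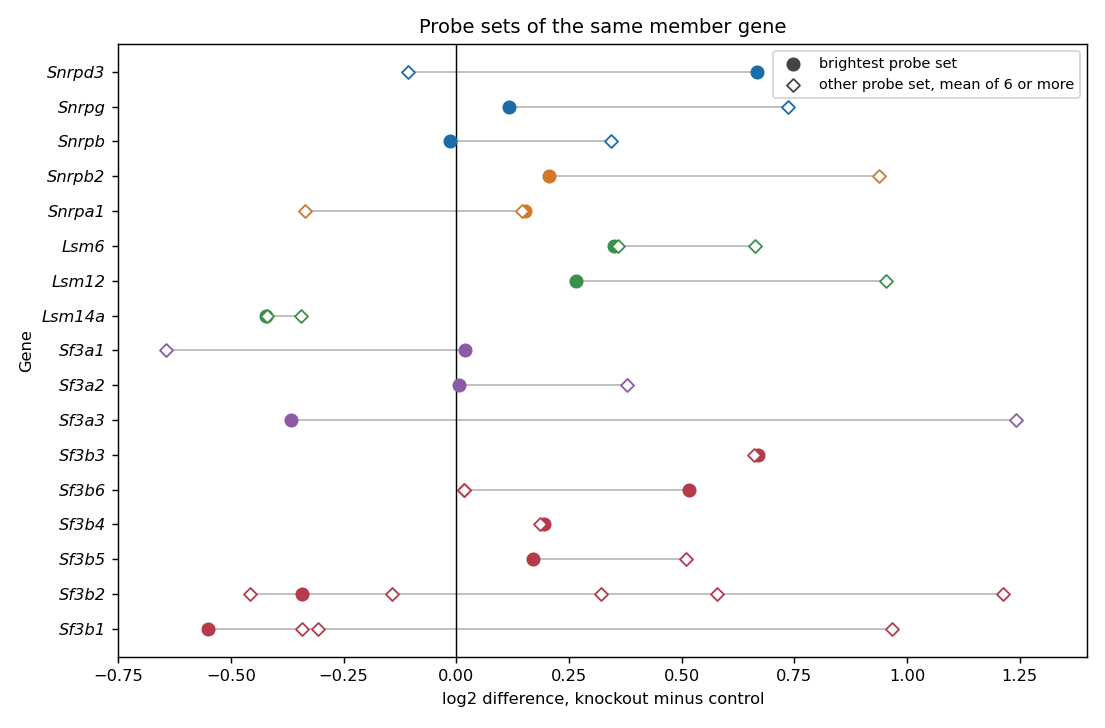
Log2 difference between knockout and control (x axis) for every probe set with a mean level from 6 upwards of the 17 members that have several (y axis), with the brightest as a filled circle and the others as open diamonds. Probe sets lie close together for Lsm14a, Sf3b3 and Sf3b4 and span both signs for Snrpd3, Snrpb, Snrpa1, Sf3a1, Sf3a3, Sf3b1 and Sf3b2.

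The members differed in genomic span, the length from the start to the end of the gene. The 23 members with a difference above 0 spanned a median of 7.36 kb and the 6 below 0 a median of 20.1 kb. Lsm2 spans 4.04 kb and Snrpc 11.9 kb, whereas Sf3b1 and Lsm14a span 42.3 kb and 45.9 kb. Sf3b3, at 36.3 kb, combined a long span with a difference of 0.67. Over the 29 members Spearman's rho between span and difference was -0.35, and over 9467 genes at a mean of 6 or more it was -0.34. These are correlations across genes that share the same 4 arrays, and genes are not independent replicates.

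**Figure D4:**
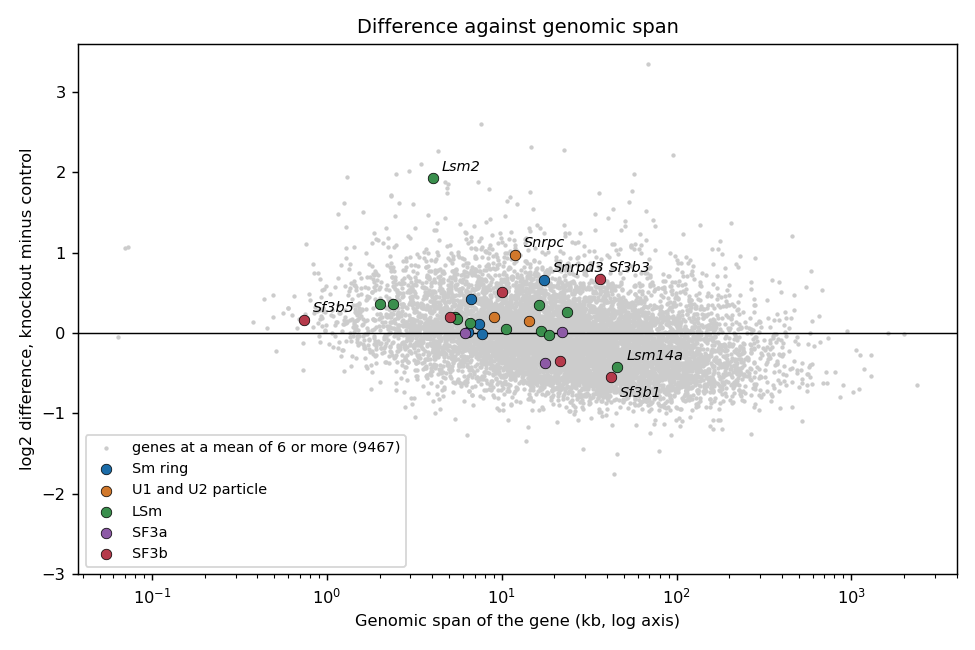
Log2 difference between knockout and control (y axis) against the genomic span of the gene in kb (x axis, log scale) for the members, coloured by family, and for 9467 genes at a mean of 6 or more in grey. Longer genes tend to lie lower in both sets of points, with Lsm2 (4.04 kb, 1.93) above the other members.

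Other genes of the pathway were read from 9 lists by role, with 125 of 134 listed genes measured. Of these, 5 rose and 1 fell, where 1.98% of all genes rose and 2.17% fell. In the same fit, 3.51% of genes at a mean of 6 or more rose and 3.77% fell. Among 15 genes that build the Sm ring onto small nuclear RNA, 2 rose and 0 fell, with a median difference of 0.03. Smn1, the core of the complex that loads Sm proteins, was at 8.52 and 8.67 in the knockout against 6.65 and 7.02 in the control. The groups lay far apart (1.76 ± 0.17, SE, a 3.38-fold rise, adjusted p = 0.0104), and it passed under the 10 alternatives that kept all 4 arrays. The call of Smn1 was lost without knockout replicate 2 (1.68) and without control replicate 2 (1.94), in fits that few of all genes passed. Prmt5, the enzyme that methylates Sm proteins before loading, was at 10.51 and 10.18 against 9.44 and 9.49 (0.88 ± 0.16, SE, adjusted p = 0.0387, or 0.0622 with probe sets tested singly). Both genes have a single probe set. With knockout replicates 1 and 2 and then control replicates 1 and 2 left out in turn, Prmt5 differed by 0.72, 1.04, 0.86 and 0.90. It did not pass in these fits, which left 1 array in a group and which few of all genes passed. Its lowest adjusted p over the alternatives, 0.00325, came with the replicate block.

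Among 10 partners of the U6 and U7 particles 1 rose and 0 fell (median -0.05): Sart3, which helps to pair U4 with U6 RNA, was at 9.31 and 9.41 against 8.51 and 8.68 (0.77 ± 0.14, SE, adjusted p = 0.0406), and its other bright probe set differed by 1.30. Among 7 genes of the minor spliceosome, which removes a rare class of introns, 1 rose and 0 fell (median 0.08). This was Zmat5, at 8.09 and 8.47 against 7.25 and 7.57 (0.87 ± 0.18, SE, adjusted p = 0.0487). Of 24 SR proteins and hnRNPs, which steer the choice of splice sites, 1 rose and 0 fell (median -0.10). Ptbp1, a repressor of exons next to pyrimidine tracts, was at 12.13 and 11.84 against 10.78 and 10.94 (1.13 ± 0.16, SE, adjusted p = 0.0283), while its other bright probe set differed by -0.04. Sart3, Zmat5, Ptbp1 and Tia1 did not pass with any of the 4 arrays left out, in fits that few of all genes passed. The arrays were left out in the order knockout replicate 1, knockout replicate 2, control replicate 1 and control replicate 2. Sart3 then differed by 0.82, 0.71, 0.68 and 0.85, and Zmat5 by 1.06, 0.68, 0.71 and 1.03. Ptbp1 differed by 0.98, 1.28, 1.05 and 1.21, and Tia1 by -0.85, -1.03, -1.16 and -0.72. Averaging the probe sets of every gene ended all 4 calls, with Ptbp1 at 0.31 (adjusted p = 0.207), Tia1 at -0.19 (0.394) and Sart3 at 1.03 (0.0561). Zmat5 has a single probe set, so its difference stayed at 0.87 while its adjusted p became 0.0601. Testing probe sets singly ended all 4 calls too. The adjusted p was then 0.0625, 0.0699 and 0.0797 for Sart3, Tia1 and Zmat5 and just over the threshold for Ptbp1. An intensity trend ended the calls of Sart3 (0.0534) and Zmat5 (0.0577).

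Among 9 genes associated with the U1 particle 1 fell and 0 rose, with a median of -0.31. It was Tia1, which helps the U1 particle onto weak splice sites, at 8.02 and 8.19 in the knockout against 8.83 and 9.26 in the control (-0.94 ± 0.18, SE, adjusted p = 0.0426). Its other bright probe sets differed by -0.67 and 0.70. None passed among 13 U2-associated genes (median -0.19), with Cherp at 0.67 ± 0.15 (SE, adjusted p = 0.0558), or among 14 genes of U5 and the tri-snRNP (median 0.19), with Ddx23 at 0.81 ± 0.21 (SE), whose control arrays lay at 4.79 and 4.72, near the top of the background range. None passed among 24 genes of the Prp19 complex and the catalytic steps (median -0.14), with Crnkl1 at -0.66 ± 0.17 (SE), or among 9 genes of decapping and decay (median 0.01), with Dcp2 at -0.47 ± 0.18 (SE). The Actb gap, smaller by 2.04 in the knockout arrays, was not tested for its part in these counts.

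**Figure D5:**
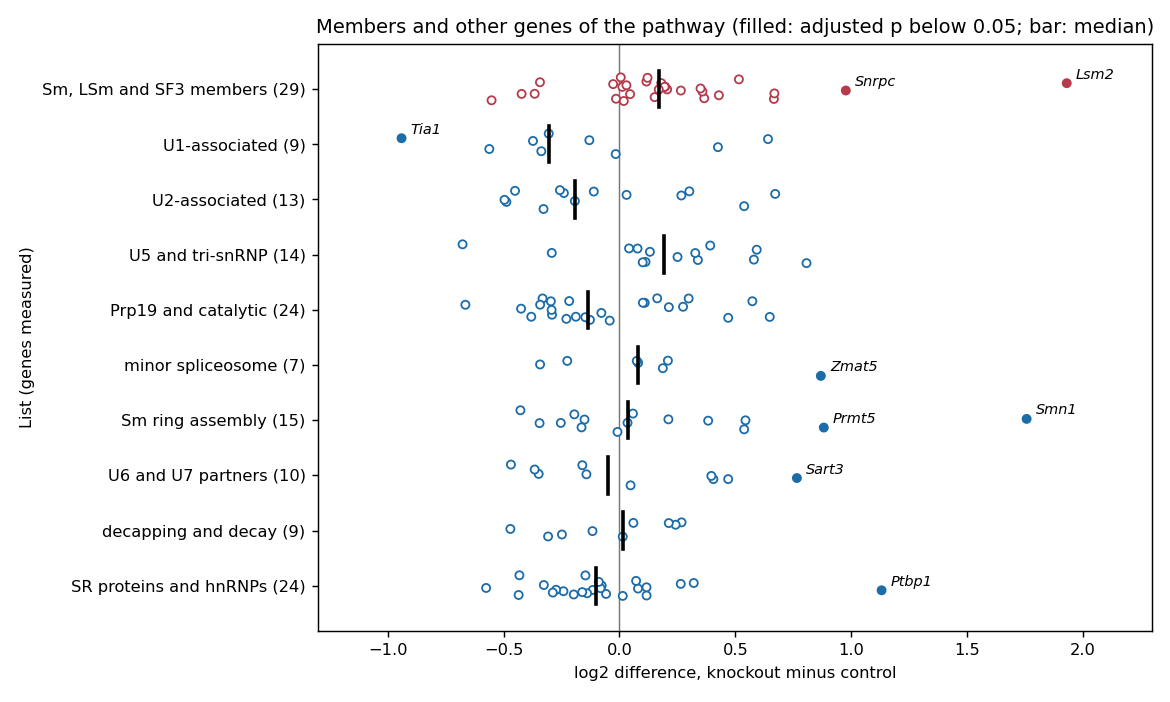
Log2 difference between knockout and control (x axis) for the 29 members and for the genes of 9 other lists of the pathway (y axis), with filled points for genes past the threshold and a bar for each list's median. Lsm2 and Snrpc are the filled members, and Smn1, Prmt5, Sart3, Zmat5, Ptbp1 and Tia1 the filled genes of the other lists.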

How the data were processed

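The authors deposited log2 values for 45101 probe sets on each array, made with RMA and limma, per the submitters' processing notes, without a version; the sources used here give no settings or genome build. Array medians lay between 4.91 and 4.95, and values were used as deposited. Names came from GEO's annotation of the platform, with gene IDs looked up in a RefSeq table (34741 of 34945 found, 0 symbols changed); 932 probe sets with several symbols were left out of genes. All 18193 genes were fitted with limma 3.58.1 in R 4.3.3 (lmFit and eBayes, 2 residual and 5.31 prior degrees of freedom), two-sided, with Benjamini-Hochberg adjustment over all genes and a threshold of 0.05. Differences are knockout minus control, and ± gives limma's moderated SE. The number of arrays limits the precision. The scripts were tested on simulated data. Named genes followed a rule: every member, up to 3 rises and 3 falls past the threshold in each other list or else its largest difference, Snai1 and cell markers. Members and lists were chosen with earlier results of these data known. Alternatives were 2 other eBayes settings, further quantile normalization, median centring, minimum means of 5 and 6, averaged or singly tested probe sets, removal of the span and level trend (loess, span 0.3), a block for the replicate number and each array left out; for the other lists they were added later.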

Additional observations from a re-analysis of the deposited data

How the results depend on the processing

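The 2 rising members stayed 2 under both eBayes settings, both scalings, both minimum means and removal of the span and level trend. Under these settings between 1.56% and 5.54% of the genes tested rose. The count was 1 (Lsm2) after averaging a gene's probe sets (1.23% of all genes) and 1 (Lsm2) with every probe set tested singly (0.423%). With an array left out, which left 1 array in a group, few of all genes passed and the members' calls did not all hold. With the replicate number as a replicate block, 4 members rose (Lsm2, Snrpc, Snrpd3 and Sf3b3) and 1 fell (Sf3b1), while 6.60% of all genes then rose and 10.4% fell. The labels do not say that a number marks a shared day or culture; deviations of same-numbered arrays correlated at 0.29 over 18193 genes. The members' median ranged from 0.08 to 0.24 with each array left out and from 0.08 to 0.18 under the other alternatives. Of the 406 member values under the 14 alternatives, 33 changed sign, none of them past the threshold before or after. With probe sets averaged these were Lsm8 (-0.18), Sf3a1 (-0.23), Sf3a3 (0.44), Sf3b2 (0.17), Snrpa1 (-0.013) and Snrpb (0.16). With the span and level trend removed they were Lsm1 (0.036), Lsm14b (-0.018), Sf3a2 (-0.10), Sf3b5 (-0.16) and Snrpe (-0.0080). With further quantile normalization Sf3a2 differed by -0.0071 and Snrpe by -0.12, and with median centring by -0.011 and -0.0042. With each array left out the differences ran from -0.13 to 0.072 for Lsm1, -0.11 to 0.17 for Lsm11, -0.16 to 0.40 for Lsm3, -0.030 to 0.42 for Lsm8, -0.10 to 0.14 for Sf3a1, -0.16 to 0.17 for Sf3a2, -0.048 to 0.018 for Snrpb, -0.15 to 0.56 for Snrpb2, -0.13 to 0.16 for Snrpe and -0.030 to 0.26 for Snrpg. Other members kept their sign but moved by over 1.5 times from their difference in the fit of all 4 arrays. These were Lsm10 (0.18 to 0.56), Lsm6 (0.19 to 0.51), Lsm4 (0.12 to 0.24), Lsm14b (0.012 to 0.079), Snrpf (0.25 to 0.60) and Snrpa1 (0.0021 to 0.30), beside Lsm7, Sf3b3 and Sf3b6. The 5 rises and 1 fall of the other lists became 3 rises and 1 fall with an intensity trend, where 1.56% of all genes rose and 1.09% fell. At a mean of 6 or more there were 8 rises and 3 falls, where 5.54% of the genes kept rose and 7.37% fell. Averaged probe sets gave 2 rises and 1 fall (1.23% and 0.533% of all genes), and that fall was not Tia1. Probe sets tested singly left 1 rise and 0 falls (0.423% and 0.077%). With the span and level trend removed there were 8 rises and 1 fall (2.12% and 1.13%). The replicate block gave 16 rises and 9 falls (6.60% and 10.4%). With an array left out few of all genes passed, and most of these calls did not hold. With 2 arrays a group, a member that missed the threshold is not shown to be unchanged.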
